A study of Mus musculus with 6 samples.

Results

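The 7 genes described here, Aplnr, Plvap, Cd93, Kit, Tmem100, Hpgd and Glp1r, are known markers of general capillary cells of the lung, and they were taken by symbol from the 24520 genes of the deposited table. All 7 were found. RNA was sequenced from endothelial cells sorted by flow cytometry from lungs of wild-type (wt) mice, in 3 libraries labelled Aged (18 months old) and 3 labelled mAdu (8 months old). The sources used here give neither the markers of the sort nor the strain or the number of mice, and p-values here rest on the spread of the libraries, which may be technical. The deposited values are TPM, which express a transcript's abundance per length as a share of a library's total.

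The capillaries of the lung alveolus hold 2 kinds of endothelial cell. Aerocytes are large and thin and lie against the gas exchange surface, whereas general capillary cells regulate vessel tone and serve as progenitors that can replace both kinds in mice. The apelin receptor Aplnr marks general capillary cells while its ligand Apln is made by aerocytes, so the pair is often used to tell them apart. Bulk RNA cannot tell a smaller number of cells of a type from less RNA per cell.

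At 18 against 8 months, none of the 7 genes passed the test (limma's moderated test, Benjamini-Hochberg adjustment over 12748 genes, threshold 0.05), 0 of 7 beside 0.0235% of all genes tested. At an unadjusted p under 0.05 there was 1 of the 7, Cd93, beside 13.4% of all genes. Cd93 was higher at 18 months, as were 440 of all tested genes at that p, while 1274 were lower. Cd93 was also the member whose ages did not overlap, 1 of 7 beside 18.7% of all genes in either direction and 14.2% lower at 18 months. Its mean was 512 ± 38.9 TPM in Aged libraries, against 414 ± 37.9 TPM in mAdu libraries (SD, n = 3 each). Plvap had the mean ratio farthest from 1, at 0.533, with 152 ± 26.4 TPM in Aged libraries, against 285 ± 137 TPM in mAdu libraries, and the mAdu value rested on 2 of the 3 libraries. The means of Kit, Glp1r and Aplnr at 18 months were 1.06, 1.02 and 0.939 times those at 8 months, less than the spread between libraries.

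The libraries resembled each other closely, with Pearson r across the 12748 tested genes of 0.974 to 0.982 within an age and 0.966 to 0.977 across ages. The 10 listed pan-endothelial markers were all present, and the cadherin Cdh5 lay at 735 ± 79.8 TPM in Aged libraries, against 892 ± 29.8 TPM in mAdu libraries. RNA of other cells was present too. The 10 listed epithelial markers, led by Scgb1a1, summed to 9526 to 19281 TPM in Aged libraries, against 11068 to 20216 TPM in mAdu libraries, and the 12 macrophage and monocyte markers, led by Lyz2, to 943 to 1737 TPM and 639 to 1798 TPM in that order. The third 8-month library had the highest sum in both lists, in the lymphocyte list (40.7 TPM, against 11.1 to 14.7 TPM in the other 5 libraries) and in the platelet list (49.3 TPM, against 9.81 to 29.3 TPM). Its epithelial sum held Sftpc at 11881 TPM, against 3945 to 6399 TPM in the other 5 libraries. Scgb1a1 lay at 7384 TPM in it, inside the 5224 to 12297 TPM of the other 5. The part of these cells in the results below was not tested.

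Among each other the 7 genes covered a wide range of levels. Tmem100 was the highest with a mean of 4422 TPM over the 6 libraries, and it ranked 14th of the 12748 tested genes. Hpgd followed at 3347 TPM and rank 21. Kit at 518 TPM, Cd93 at 463 TPM, Plvap at 219 TPM, Aplnr at 176 TPM and Glp1r at 84.7 TPM came next. Within a library, the order held in all 6 libraries between Tmem100 and Hpgd, between Hpgd and Kit, between Cd93 and Plvap and between Aplnr and Glp1r. Kit lay above Cd93 in 4 of 6 libraries and Plvap above Aplnr in 4 of 6, so the order of these 2 pairs was not held by every library. Across libraries the ranges of Hpgd and Kit, and of Aplnr and Glp1r, did not overlap, and those of the other neighbours did. The summed TPM of all 7 lay at 9363, 9387 and 10371 at 18 months and at 8839.5, 8995.5 and 8417 at 8 months, a sum made up mostly of Tmem100 and Hpgd.

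**Figure D1:**
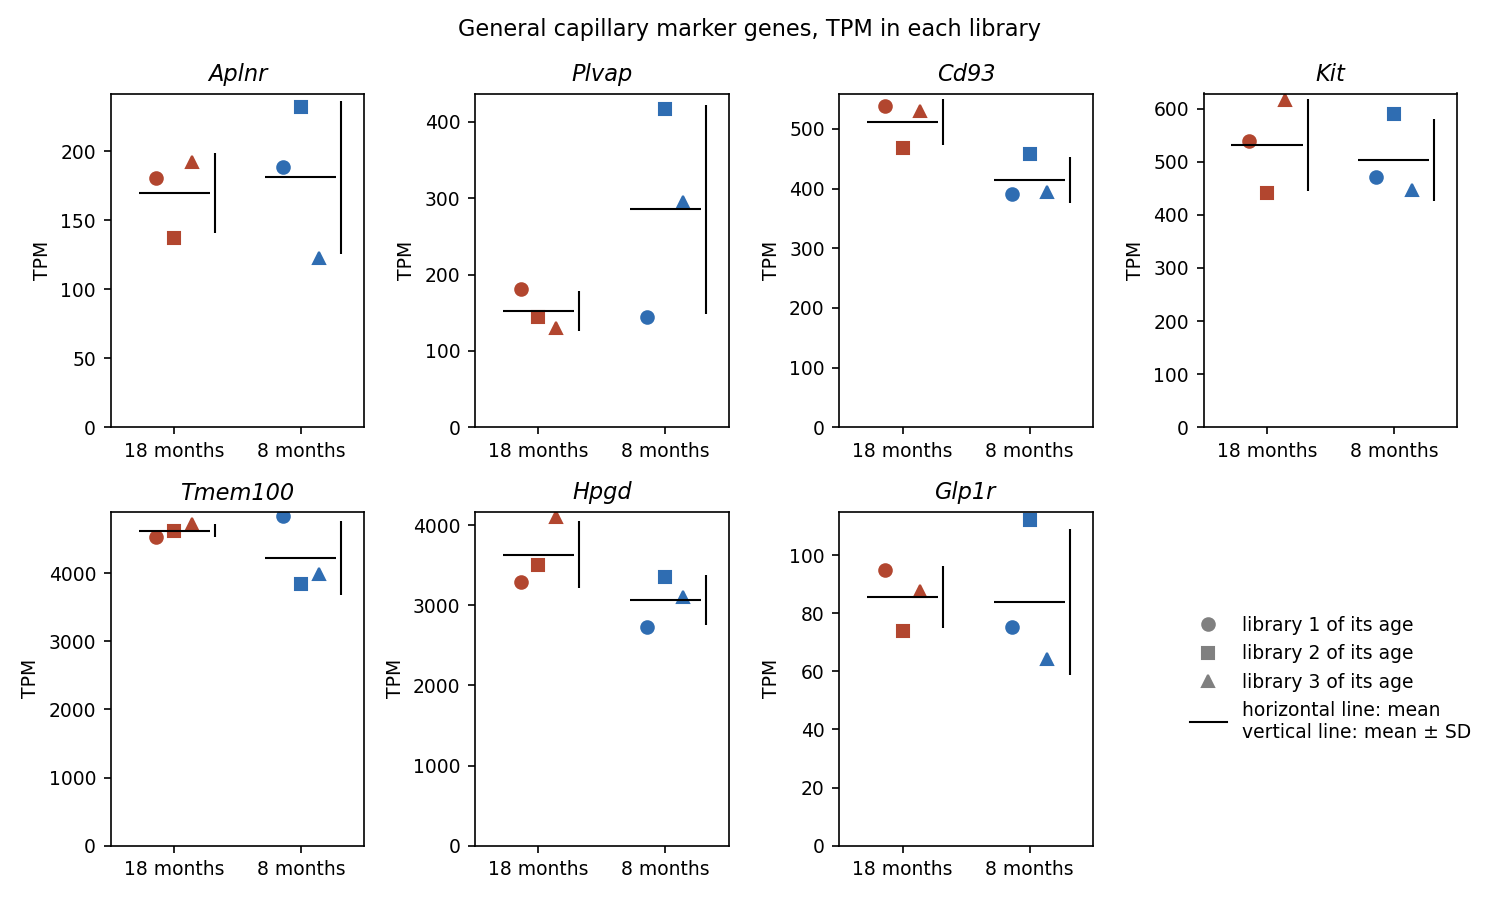
TPM of each of the 7 general capillary marker genes (y axis, from 0) in the 3 libraries of 18 months (red) and the 3 of 8 months (blue), with the symbol giving the library number, the horizontal line the mean and the vertical line the mean ± SD. The ages separate without overlap for Cd93, at 467 to 539 TPM against 391 to 458 TPM, while for Plvap the first 8-month library, at 144 TPM, sits among the 18-month libraries.

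The receptors come first. Aplnr encodes the G-protein-coupled receptor of the peptide apelin and lies on chromosome 2 (85136225 to 85139923, plus strand, GRCm38). Its libraries lay at 181, 137 and 192 TPM in Aged libraries, against 188, 232 and 122.6 TPM in mAdu libraries. The second 8-month library was the highest of all 6 and the third the lowest, so the 18-month range lay wholly inside the 8-month range. The log2 difference was -0.06, and its 95% interval ran from -0.60 to 0.49 (limma adjusted p = 0.95), that is, from 0.660-fold to 1.40-fold. Its sign turned without the second 18-month library (0.09) and without the second 8-month library (0.15), and with median-of-ratios scaling (0.037).

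Glp1r encodes the receptor of the gut hormone GLP-1 and lies on chromosome 17 (30901817 to 30940791, plus strand). It was the lowest of the 7, with 94.8, 74.0 and 87.7 TPM in Aged libraries, against 75.2, 112 and 64.2 TPM in mAdu libraries. Here too the highest library was the second and the lowest the third of 8 months, with all 18-month values between them. In log2 it differed by 0.06 with an interval from -0.41 to 0.53 (limma adjusted p = 0.93). It was -0.017 without the first 18-month library and -0.11 without the third 8-month library.

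Kit, on chromosome 5 (75574916 to 75656722, plus strand), encodes the receptor tyrosine kinase of stem cell factor, which mast cells also carry. Kit lay at 539, 442 and 616 TPM in Aged libraries, against 471, 591 and 446 TPM in mAdu libraries, and the ages overlapped over nearly their whole range. The log2 difference was 0.08 with an interval from -0.28 to 0.44 (limma adjusted p = 0.88), and it was -0.032 without the third 18-month library and -0.0011 without the third 8-month library. Of the 8 listed mast cell and basophil markers 7 had a mean under 1 TPM over the 6 libraries, and the tryptase gene Tpsb2 was at 0 in all of them. The remaining marker, Hdc, which makes histamine, lay at 14.3 ± 2.73 TPM in Aged libraries, against 17.8 ± 10.8 TPM in mAdu libraries (limma adjusted p = 0.91).

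Cd93, on chromosome 2 (148436640 to 148443563, minus strand), encodes a lectin-like membrane protein of endothelium that takes part in adhesion and vessel growth. It lay at 539, 467 and 529 TPM in Aged libraries, against 391, 458 and 394 TPM in mAdu libraries. Every 18-month library lay above every 8-month library, although the second libraries of the 2 ages, at 467 and 458 TPM, came close. That is a log2 difference of 0.31, SE 0.11, with an interval from 0.06 to 0.55, which is 1.04-fold to 1.47-fold, and it did not pass (limma adjusted p = 0.27, unadjusted p = 0.021). It stayed above 0 in all 19 alternatives, between 0.27 and 0.45, with an adjusted p from 0.11 to 0.52. Cd93 varied little within an age, with a coefficient of variation of 7.59% at 18 months and 9.16% at 8 months.

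Plvap, on chromosome 8 (71497765 to 71511752, minus strand), encodes the protein of the diaphragms that span caveolae and fenestrae, and it is known from venous endothelium as well as from capillaries. It lay at 182, 144 and 130.4 TPM in Aged libraries, against 144, 417 and 295 TPM in mAdu libraries. mAdu libraries 2 and 3 lay above all others, and the first lay within the 18-month range. Its log2 difference was -0.79, SE 0.35, with an interval from -1.59 to 0.02, which is 0.332-fold to 1.01-fold, and it did not pass (limma adjusted p = 0.38, unadjusted p = 0.054). It ranged from -1.21 without the first 8-month library to -0.45 without the second. After the libraries were corrected for GC content and transcript length it was -0.50. The 8-month libraries differed by up to 2.90-fold among themselves, and the SD of Plvap in log2(TPM + 1) at 8 months was at or above that of 97.1% of the tested genes.

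Tmem100, on chromosome 11 (90030348 to 90036508, plus strand), encodes a small membrane protein that is induced in endothelium by BMP9 and BMP10 through the receptor ALK1. It lay at 4531, 4618 and 4719 TPM in Aged libraries, against 4839, 3834 and 3992 TPM in mAdu libraries. The 3 libraries of 18 months lay close together, with a coefficient of variation of 2.03% against 12.8% at 8 months, and between the first 8-month library, the highest, and the other two. Its difference was 0.14 in log2 with an interval from -0.16 to 0.44 (limma adjusted p = 0.71). It stayed above 0 in all 19 alternatives, between 0.07 and 0.24.

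Hpgd, on chromosome 8 (56294585 to 56321043, plus strand), encodes the dehydrogenase that inactivates prostaglandins, for which the lung is a main site. It lay at 3297, 3505 and 4097 TPM in Aged libraries, against 2731, 3351 and 3103 TPM in mAdu libraries. The first 18-month library lay below the second 8-month library, which was the sole crossing between the ages. The log2 difference was 0.25 with an interval from -0.07 to 0.56, which is 0.955-fold to 1.47-fold (limma adjusted p = 0.48). It stayed above 0 in all 19 alternatives, between 0.16 and 0.35.

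**Figure D2:**
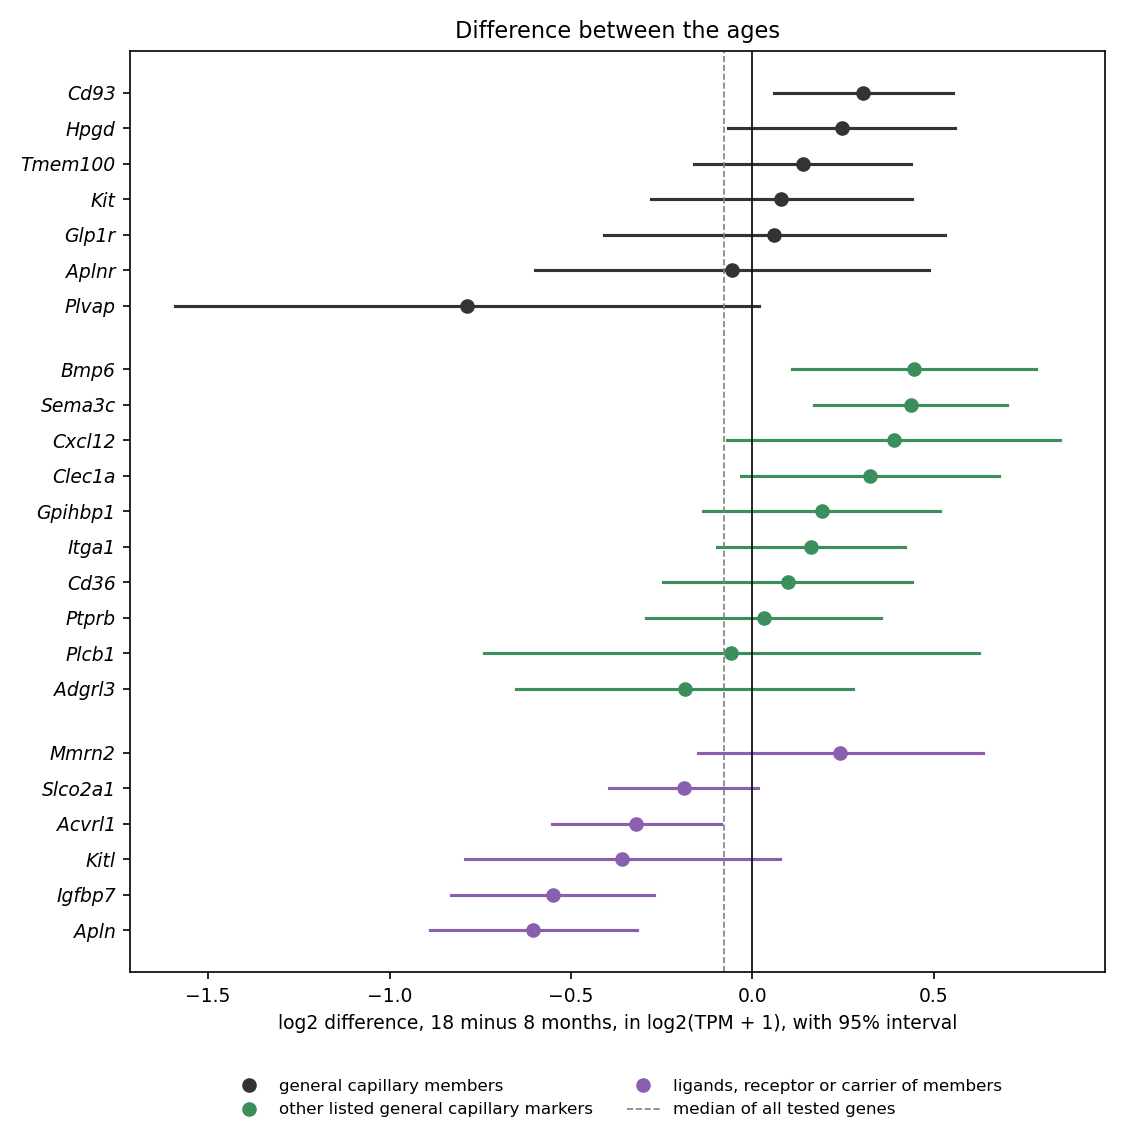
Log2 difference of 18 minus 8 months in log2(TPM + 1) (x axis), with limma's 95% interval as a line, for the 7 members (black), the 10 other listed general capillary markers (green) and 6 ligands, receptors or carriers of the members' pathways (purple). The interval of Cd93 (0.06 to 0.55) is the only one of the 7 members that leaves out 0, and Plvap lies at the far left with an interval from -1.59 to 0.02. The dashed line marks the median of all tested genes at -0.08.

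Of the 7 genes 5 had a log2 difference above 0, where 33.8% of all tested genes did and 66.2% lay below 0. The median of the 7 was 0.08 and that of all tested genes -0.08. That general median depends on the scaling, and with median-of-ratios scaling 6 of the 7 lay above 0 with a median of 0.17, beside 51.1% of all genes above 0, 48.9% below 0 and a median of 0.0060. The members were chosen with results of these data known, so these counts describe the 7 genes and are no test of them.

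The members did not vary as a block across the 6 libraries. In log2(TPM + 1), Aplnr, Kit and Glp1r went up and down together, with Pearson r of 0.88 between Aplnr and Glp1r, 0.83 between Kit and Glp1r and 0.81 between Aplnr and Kit (n = 6 libraries). All 3 were high in the second 8-month library and low in the third. Plvap and Tmem100 ran opposite to each other, with r of -0.98. Plvap was 1.07 above its own 6-library mean in the second 8-month library and 0.57 above it in the third, where Tmem100 was 0.20 and 0.14 below its mean. Cd93 and Hpgd had r of 0.77, while Aplnr and Plvap had 0.14 and Aplnr and Tmem100 -0.013. These are descriptions over points that share libraries and a common TPM total, and with 6 points high values arise easily among many genes.

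The genes most like each member reached such values. Among 9087 other genes whose mean reached 5 TPM, the closest by r over the 6 libraries was Zfp672 for Aplnr (0.983), Lbp for Plvap (0.988), Dbt for Cd93 (0.995), Lars for Kit (0.984), Rsph3a for Tmem100 (0.979), Clec1a for Hpgd (0.996) and Orc2 for Glp1r (0.999). The next were Zfp273 for Aplnr (0.982), Gas6 for Plvap (0.988), Mir7652 for Cd93 (0.982), Zfp105 for Kit (0.983), Acot9 for Tmem100 (0.979), Tbce for Hpgd (0.994) and Mre11a for Glp1r (0.996). Of these 14, Clec1a, a lectin-like receptor of endothelium, was also in the list of other general capillary markers.

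Of the 6 marker lists compared with Plvap, the venous one had the highest r. Of the 10 listed venous genes 8 had r of 0.83 to 0.99 with Plvap over the 6 libraries, from the noradrenaline transporter Slc6a2 to the chemokine receptor Ackr1, and the other two, Ephb4 and Lyve1, had 0.022 and 0.38. The mean log2(TPM + 1) of the 10 had r of 0.95 with Plvap and -0.90 with Tmem100. The same mean had r with Plvap of 0.64 for the pan-endothelial, 0.62 for the arterial, 0.54 for the aerocyte, 0.41 for the epithelial and -0.16 for the macrophage and monocyte markers. The arterial mean had r of 0.78 with Aplnr, 0.85 with Kit and 0.86 with Glp1r. For the macrophage and monocyte mean these were -0.77, -0.34 and -0.43, and for the epithelial mean -0.65, -0.46 and -0.40. Summed, the venous markers lay at 1297, 1037 and 1212 TPM in Aged libraries, against 1717, 2039 and 1959 TPM in mAdu libraries. Much of each sum was Lyve1 alone, at 718, 575 and 626 TPM in Aged libraries, against 1113, 844 and 976 TPM in mAdu libraries. All 10 had a log2 difference below 0, beside 66.2% of all genes, with a median of -0.76. With median-of-ratios scaling 9 of the 10 did, beside 48.9%. None passed, and 5 were lower at an unadjusted p under 0.05, beside 9.99% of all genes. The smallest p were those of Slc6a2, at 64.3 ± 16.8 TPM in Aged libraries, against 193 ± 59.9 TPM in mAdu libraries (limma adjusted p = 0.12), and of the carboxypeptidase Cpe, at 3.36 ± 1.34 TPM and 14.9 ± 6.54 TPM in that order (limma adjusted p = 0.14). None of the 10 was at 0. The part of venous cells in the values of Plvap was not tested.

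**Figure D3:**
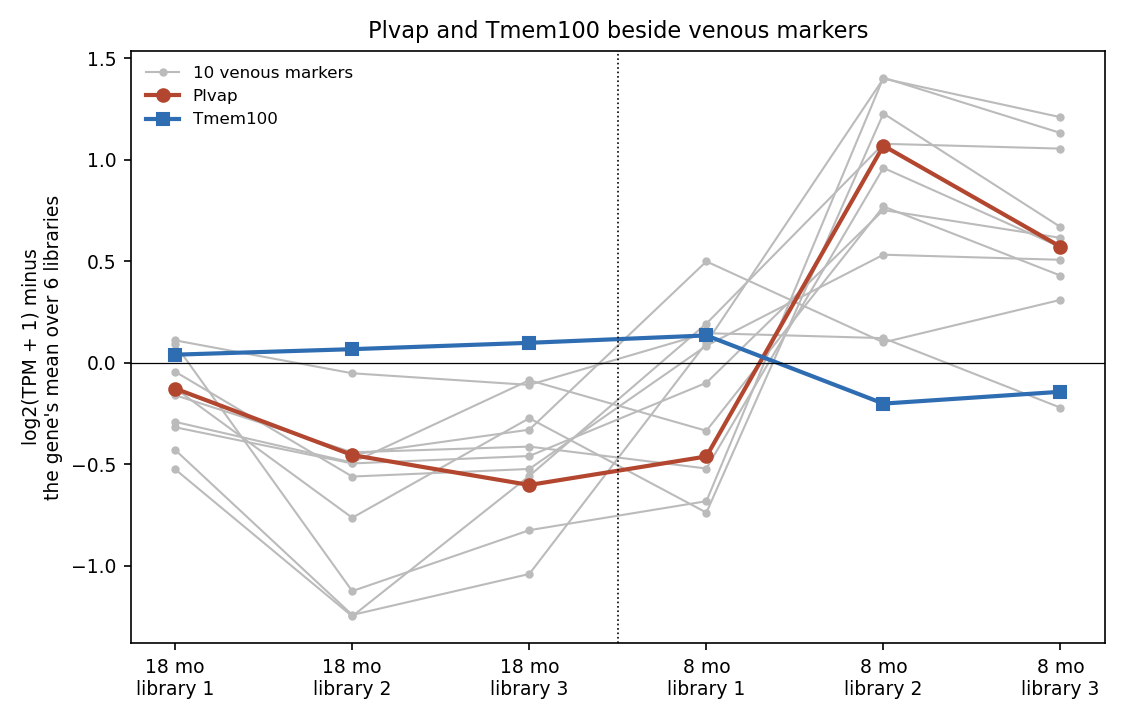
Deviation of log2(TPM + 1) from each gene's own mean over the 6 libraries (y axis) in the 3 libraries of 18 months and the 3 of 8 months (x axis), for Plvap (red), Tmem100 (blue) and the 10 listed venous markers (grey). Lines only join the values of 1 gene. Plvap lies above its mean in mAdu libraries 2 and 3, by 1.07 and 0.57, as do most venous markers, while Tmem100 dips there by 0.20 and 0.14.

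A further 10 general capillary markers were listed beside the members. None passed, and 2 of the 10 reached an unadjusted p under 0.05, beside 13.4% of all genes, the semaphorin Sema3c and the growth factor Bmp6. Both were higher at 18 months, as were 440 of all tested genes at that p, while 1274 were lower. Sema3c lay at 537, 502 and 578 TPM in Aged libraries, against 393, 450.2 and 354 TPM in mAdu libraries (limma adjusted p = 0.19), and Bmp6 at 120, 125 and 122.9 TPM against 76.2, 113 and 84.2 TPM (limma adjusted p = 0.25). In both genes every 18-month library lay above every 8-month library, as in Cd93. Those 2 of 10 stand beside 18.7% of all genes whose ages did not overlap in either direction. Most of these genes were lower at 18 months (14.2% of all genes), unlike Sema3c and Bmp6. Of the 10, 8 had a difference above 0, beside 33.8% of all genes, and 9 did with median-of-ratios scaling, beside 51.1%. The median was 0.18, from Bmp6 at 0.44 to the adhesion receptor Adgrl3 at -0.19. Gpihbp1, which carries lipoprotein lipase to the capillary surface and is another widely used marker of these cells, lay at 2209 ± 267 TPM in Aged libraries, against 1938 ± 262 TPM in mAdu libraries (limma adjusted p = 0.62).

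All 14 listed aerocyte markers had a difference below 0, beside 66.2% of all genes, with a median of -0.63. So they did with median-of-ratios scaling, beside 48.9%. In 12 of them every 18-month library lay below every 8-month library, beside 14.2% of all genes, and 0 passed. The smallest p belonged to Rprml, at 9.75 ± 3.37 TPM in Aged libraries, against 26.6 ± 0.795 TPM in mAdu libraries (limma adjusted p = 0.091, and 0.041 among protein-coding genes alone), and to the transcription factor Tbx3, at 139 ± 21.2 TPM and 217 ± 5.08 TPM (limma adjusted p = 0.13). The difference between the 2 capillary lists was not tested, since the members were chosen with results known. Of the 10 arterial markers 6 were above 0, beside 33.8% of all genes, and 4 below, with a median of 0.06. With median-of-ratios scaling 7 were above 0, beside 51.1%. Gap junction gene Gja4 lay at 558 ± 87.3 TPM in Aged libraries, against 366 ± 77.5 TPM in mAdu libraries (limma adjusted p = 0.21), and Mgp at 45.1 ± 5.86 TPM and 58.8 ± 2.90 TPM (limma adjusted p = 0.22).

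The members' partners were then followed by pathway. The ligand of Aplnr, Apln, lay at 53.6, 42.0 and 42.1 TPM in Aged libraries, against 67.9, 66.9 and 75.1 TPM in mAdu libraries, without overlap, a log2 difference of -0.60, SE 0.12, that did not pass (limma adjusted p = 0.14). The second ligand, Apela, was listed at 0 in all 6 libraries. The ratio of Aplnr to Apln was 3.73 ± 0.720 at 18 months and 2.63 ± 0.929 at 8 months, and its libraries overlapped, at 3.37, 3.27 and 4.56 against 2.77, 3.47 and 1.63. The receptor overlapped between the ages and the ligand, itself an aerocyte marker, did not. Of the 7 tested genes of the apelin list 6 were below 0, beside 66.2% of all genes, and 0 passed, and after Apln the smallest p was that of the G-protein subunit Gnai3, at 61.5 ± 11.4 TPM in Aged libraries, against 78.6 ± 0.853 TPM in mAdu libraries (limma adjusted p = 0.30).

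Kitl, which encodes the ligand of Kit, lay at 262, 176 and 287 TPM in Aged libraries, against 294, 275 and 347 TPM in mAdu libraries (limma adjusted p = 0.47), with overlap. The ratio of Kit to Kitl was 2.24 ± 0.243 at 18 months and 1.68 ± 0.436 at 8 months. Its libraries overlapped, at 2.05, 2.51 and 2.14 against 1.60, 2.15 and 1.28. Among the 8 listed genes of Kit signalling 0 passed. Stat5a, a transcription factor downstream of Kit, had the smallest p, at 2.37 ± 0.171 TPM and 4.504 ± 1.40 TPM in the same order (limma adjusted p = 0.25), followed by the kinase Lyn at 76.1 ± 15.3 TPM and 93.4 ± 8.11 TPM (limma adjusted p = 0.46).

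CD93 binds the matrix proteins MMRN2 and IGFBP7. Mmrn2 lay at 136 ± 13.1 TPM in Aged libraries, against 117 ± 27.9 TPM in mAdu libraries (limma adjusted p = 0.59). Igfbp7 had the opposite sign to Cd93, at 238, 284 and 254 TPM in Aged libraries, against 407, 328 and 406 TPM in mAdu libraries, without overlap and with a log2 difference of -0.55 that did not pass (limma adjusted p = 0.16) and was -0.33 after the libraries were corrected for GC content and transcript length. The ratio of Cd93 to Igfbp7 was 2.27, 1.65 and 2.08 at 18 months and 0.960, 1.40 and 0.969 at 8 months. That of Cd93 to Mmrn2 was 3.77 ± 0.332 at 18 months and 3.63 ± 0.569 at 8 months, and its libraries overlapped. Of the 7 tested genes in this list 0 passed. Dystroglycan (Dag1), which binds the CD93 protein, had the next smallest p, at 27.8 ± 5.44 TPM in Aged libraries, against 38.6 ± 5.95 TPM in mAdu libraries (limma adjusted p = 0.32).

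Tmem100 lies downstream of ALK1, which Acvrl1 encodes. Acvrl1 lay at 1236, 1082 and 1245 TPM in Aged libraries, against 1447, 1521 and 1474 TPM in mAdu libraries, without overlap and with a log2 difference of -0.32 (limma adjusted p = 0.23), which was -0.083 after the GC and length correction. Its co-receptor endoglin (Eng) lay at 371 ± 75.7 TPM and 637 ± 87.6 TPM in that order (limma adjusted p = 0.15). Of the 11 tested genes of the ALK1 list 10 had a difference below 0, beside 66.2% of all genes, and 0 passed, with a median of -0.21. With median-of-ratios scaling 8 of the 11 were below 0, beside 48.9%. The ligand genes Gdf2 and Bmp10, which in mice are made in liver and heart, were listed at 0 in every library.

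Prostaglandins reach HPGD through the carrier Slco2a1, which lay at 459, 413 and 462 TPM in Aged libraries, against 511, 515 and 495 TPM in mAdu libraries, without overlap (log2 difference -0.19, limma adjusted p = 0.41, and -0.039 after the GC and length correction). Among the other genes the smallest p were those of the cyclooxygenase genes, with Ptgs1 at 122 ± 5.53 TPM in Aged libraries, against 141 ± 8.13 TPM in mAdu libraries (limma adjusted p = 0.35) and Ptgs2 at 4.96 ± 4.88 TPM and 15.3 ± 13.4 TPM (limma adjusted p = 0.39). Of the 10 tested genes of prostaglandin handling 8 were below 0, beside 66.2% of all genes, with a median of -0.14, and 0 passed. With median-of-ratios scaling 5 of the 10 were below 0, beside 48.9%. The GLP-1 precursor gene Gcg did not exceed 0.160 TPM in any library. In the list of GLP-1 receptor signalling 0 of 10 tested genes passed, and the smallest p were those of Pde4d, a phosphodiesterase of cyclic AMP, at 8.63 ± 0.847 TPM and 11.5 ± 0.239 TPM (limma adjusted p = 0.26), and of Rapgef3, a cyclic AMP sensor, at 90.7 ± 16.5 TPM and 115 ± 11.1 TPM (limma adjusted p = 0.36), each at 18 and then 8 months.

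Plvap protein sits on caveolae. The list for it held 7 genes of caveolae and the VEGF receptor genes Kdr and Nrp1, and 0 of the 9 passed. Of the 7 caveolar genes 5 were below 0, beside 66.2% of all genes, with a median of -0.09. Kdr, which is also an aerocyte marker, had the smallest p, at 373 ± 36.8 TPM in Aged libraries, against 540.1 ± 44.5 TPM in mAdu libraries (limma adjusted p = 0.14), followed by Ehd2 at the caveolar neck, at 355 ± 66.3 TPM and 485 ± 13.3 TPM (limma adjusted p = 0.22). Neither shared the low first 8-month library of Plvap, since both had all 8-month libraries above all 18-month libraries.

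Lists of other cells gave 0 calls as well, while their counts differed. All 8 tested fibroblast and pericyte markers had a log2 difference below 0, beside 66.2% of all genes, with a median of -0.70. In 6 of them every 18-month library lay below every 8-month library, beside 14.2% of all genes. Of the 10 tested macrophage and monocyte markers 9 lay above 0, beside 33.8% of all genes, with a median of 0.61. The ages did not overlap in 2 of these 10, beside 18.7% of all genes in either direction. Those 2 were higher at 18 months, whereas 14.2% of all genes were lower without overlap. Both counts below and above 0 were the same with median-of-ratios scaling, beside 48.9% of all genes below 0 and 51.1% above. Of the tested markers, 9 of 10 pan-endothelial, 4 of 4 lymphatic, 4 of 4 platelet, 5 of 8 epithelial and 4 of 6 lymphocyte genes lay below 0, beside 66.2% of all genes. With median-of-ratios scaling 6 of 10 pan-endothelial, 3 of 4 lymphatic, 2 of 4 platelet, 5 of 8 epithelial and 4 of 6 lymphocyte genes did, beside 48.9%. In the order of 18 and 8 months, the pan-endothelial Ramp2 lay at 1358 ± 155 and 1708 ± 117 TPM, the lymphatic Ccl21a at 1.57 ± 0.158 and 14.5 ± 9.56 TPM (limma adjusted p = 0.16, and 0.014 without the first 8-month library) and Flt4 at 31.6 ± 7.46 and 42.3 ± 6.75 TPM, and the fibroblast genes Col1a1 at 0.390 ± 0.238 and 1.79 ± 0.415 TPM and Dcn at 4.13 ± 0.241 and 12.0 ± 5.84 TPM. Ccl21a and Dcn were highest in the second 8-month library, as Plvap was. The myeloid Cd14 lay at 33.1 ± 4.70 and 20.4 ± 3.98 TPM and Chil3 at 260.0 ± 125 and 66.1 ± 64.1 TPM, the B cell genes Cd79a at 3.53 ± 0.921 and 6.72 ± 4.03 TPM and Ms4a1 at 2.15 ± 1.12 and 5.11 ± 3.97 TPM. The epithelial Scgb1a1 lay at 9171 ± 3608 and 6312 ± 929 TPM and Hopx at 71.9 ± 12.0 and 82.5 ± 10.5 TPM, and the platelet genes Gp9 at 1.55 ± 1.26 and 2.02 ± 0.989 TPM and Itga2b at 1.95 ± 0.262 and 2.53 ± 1.84 TPM.

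The reference transcripts of the members shared little sequence with other genes. Of all 31-base sequences in their annotated transcripts, 0 of those of Aplnr, Plvap, Kit, Tmem100 and Hpgd occurred in transcripts of another gene, against 2.05% for Cd93 and 0.502% for Glp1r. The annotated exons of the 7 genes shared 0 bases with those of any other gene. Kit has 8 annotated transcripts, Aplnr and Glp1r have 2 each and the other 4 genes have 1 each.

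Since the study concerns DNA methylation, which in mammals falls on CpG dinucleotides, the promoters of the members were read for CpG content, a feature that their choice did not use. RefSeq promoter windows (GRCm38.p6, 250 bases before to 50 after the start) were matched for Kit, Hpgd and Glp1r, 3 of the 7, and no methylation was measured here. The median window of the 32851 in the table held 7 CpG. Glp1r held 29 CpG in its 300 bases, more than 87.1% of all windows, with a GC content of 73.7%. Kit held 20 at 69% GC, more than 73.5% of windows, and Hpgd 12 at 58% GC, more than 60.4%. The upstream stretches are shown 5′ to 3′ on the plus strand with each CpG in capitals, each ending before the first start that RefSeq or GENCODE annotates, at chr17:30901617-30901816, chr5:75574737-75574915 and chr8:56294302-56294551.
Glp1r: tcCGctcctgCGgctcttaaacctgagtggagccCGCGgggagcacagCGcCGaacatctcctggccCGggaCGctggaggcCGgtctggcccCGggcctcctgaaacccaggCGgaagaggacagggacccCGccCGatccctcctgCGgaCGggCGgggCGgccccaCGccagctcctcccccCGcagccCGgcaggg
Kit: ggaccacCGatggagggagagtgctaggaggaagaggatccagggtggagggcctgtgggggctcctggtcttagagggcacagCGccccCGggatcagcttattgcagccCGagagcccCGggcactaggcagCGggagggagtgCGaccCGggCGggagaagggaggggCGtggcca
Hpgd: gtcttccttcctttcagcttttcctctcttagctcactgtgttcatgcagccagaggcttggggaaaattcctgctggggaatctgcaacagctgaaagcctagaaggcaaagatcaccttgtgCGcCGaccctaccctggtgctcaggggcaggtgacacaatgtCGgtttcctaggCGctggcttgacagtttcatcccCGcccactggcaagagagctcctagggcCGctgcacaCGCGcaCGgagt
The capitals crowd throughout the Glp1r stretch, with 20 CpG in 200 bases, and lie mostly in the second part of the Kit stretch, with 10 in 179 bases. In the Hpgd stretch, with 9 in 250 bases, they lie from about the middle to the 3′ end. The TATA box letters TATAAA, searched on both strands, occurred in the 300-base window of Hpgd, 29 bases ahead of the GENCODE start and past the stretch shown, and not in those of Kit and Glp1r, where 13.6% of all windows hold them. GC box letters GGGCGG, also on both strands, occurred in all 3 windows and in 35.7% of all windows.

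**Figure D4:**
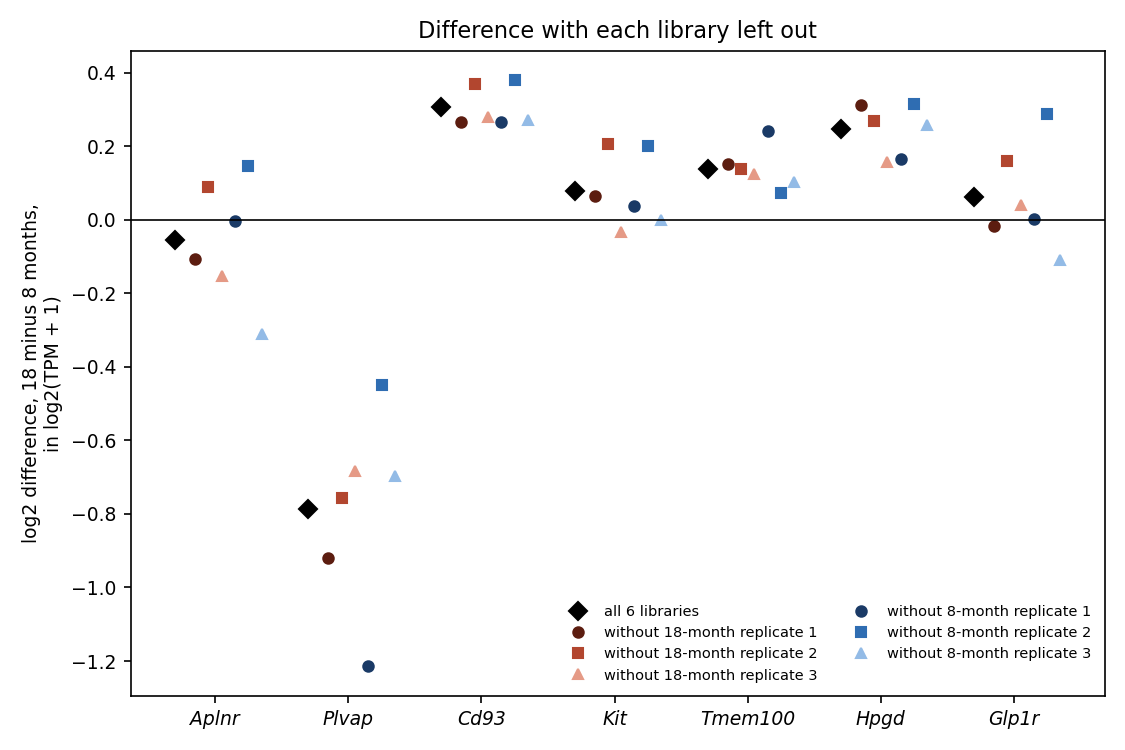
Log2 difference of 18 minus 8 months in log2(TPM + 1) (y axis) for each of the 7 members with all 6 libraries (black diamond) and with each library left out (red shades, an 18-month library left out, blue shades, an 8-month library left out). Cd93, Tmem100 and Hpgd stay above 0 and Plvap stays below 0, from -1.21 to -0.45, while Aplnr, Kit and Glp1r lie on both sides of 0.

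Leaving out 1 library at a time kept Cd93, Tmem100 and Hpgd above 0 and Plvap below 0 in all 6 cases. For Cd93 this could not come out otherwise, since its ages did not overlap. Aplnr ranged from -0.31 without the third 8-month library to 0.15 without the second, and Glp1r from -0.11 without the third to 0.29 without the second. Kit ranged from -0.032 without the third 18-month library to 0.21 without the second. Aplnr and Glp1r were also the members whose highest library was the second and whose lowest was the third of 8 months.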

How the data were processed

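The authors deposited TPM for 24520 Ensembl genes in 6 columns. The tool kallisto, which assigns reads to transcripts, and the build mm10 are named per the submitters' processing notes. Not given in the sources used here are its version, the transcript set, the summing to genes and the use of strand. Per the labels' protocols, 10 ng of total RNA went into SMARTer Ultra Low libraries, read as 100 bp pairs. TPM keep no read depth, so no counting error is given, and they sum to 869315 to 876126 per library.

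Symbols and positions come from GENCODE release M21 (GRCm38, the assembly called mm10), in which 24299 identifiers were found. All 12748 genes whose mean reached 1 TPM, the 7 members among them, were tested as log2(TPM + 1) with limma 3.58.1 in R 4.3.3, with a mean-variance trend and age as the only term, in a 2-sided test with Benjamini-Hochberg adjustment over all tested genes and a threshold of 0.05. Differences on this scale understate changes of low genes. In simulated data for the 12748 genes, 7, 29, 45 and 47 of 50 genes changed by 0.5, 1, 2 and 3 in log2 were called, and 0 when none was changed.

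The members and lists were chosen with earlier results of these data known. Named are the 7 members, their ligands, receptor or carrier, and from each list the 2 tested genes with the smallest p. Also named are the most abundant gene of the epithelial list and of the macrophage and monocyte list, and the 2 genes most like each member. Gpihbp1, Adgrl3, Ackr1, Ephb4, Lyve1, Tpsb2, Sftpc, Gdf2 and Bmp10 were named after their values were seen. Alternatives are given at the end.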

Additional observations from a re-analysis of the deposited data

How the results depend on the processing

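Over 19 alternatives 0 of the 7 members passed in any, and Plvap, Cd93, Tmem100 and Hpgd kept their sign in all. Settings that changed only the low-value filter, the trend, the replicate block or the genes tested left each difference unchanged. Those settings could not turn a sign. Aplnr changed sign to 0.037 with median-of-ratios scaling, 0.070 with library weights, and 0.032 after correcting each library for GC content and transcript length (loess, span 0.75), with or without the replicate block. With 1 library left out, Aplnr ranged from -0.31 to 0.15, Kit from -0.032 to 0.21 and Glp1r from -0.11 to 0.29. Against 3 genes in all, the number past the threshold was 0 without the filter on low values (2203 genes had an unadjusted p under 0.05), 16 with quantile normalization, 94 under library weights, 28 when restricted to protein-coding genes, and 0 to 2 with 1 library left out. The other settings, namely pseudocounts of 0.1 and 0.5, a mean of at least 5 TPM, rescaled sums, a fit without the trend, median-of-ratios scaling and the GC and length correction alone, gave 2 or 3.

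Same-numbered libraries did not deviate together (correlations of -0.012, -0.090 and 0.057), so the numbers were not taken to pair them. The replicate block gave 0 genes, as it did with the GC and length correction. Among genes of other cells, Scgb1a1 was -0.010 with library weights, Itga2b 0.023 with the GC and length correction, with or without the block, and with 1 library left out Hdc ranged from -0.55 to 0.28, Gp9 from -0.67 to 0.14 and Itga2b from -0.42 to 0.25. Of the named genes that are no members, 6 passed as lower in at least 1 alternative: Apln, Eng, Slc6a2 and Cpe with library weights, Rprml with these and among protein-coding genes alone, and Ccl21a without the first 8-month library (adjusted p = 0.014). The causes were not tested. Depth is unknown.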
